A study of Mus musculus with 10 samples.

Results

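CD8 T cells that carried NFAT1 CA-RIT were compared with CD8 T cells that carried NFAT5, both recovered from the same kind of tumour. The comparison holds every library labelled with either factor except one, 6 of the 10 libraries of the series. NFAT5 had 3 libraries (numbered 1, 5 and 8 in their titles) and CA-RIT NFAT1 had 3 (2, 4 and 9). The fourth CA-RIT NFAT1 library (number 10) was left out because it held almost no T cell transcripts, and no eGFP control library entered.

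In both groups, P1A CD8 T cells, which bear a T cell receptor for the P1A antigen, were activated for 24 h and given a retroviral vector. They were moved 24 h later into Rag1-/- B10D2 mice bearing P511, a mastocytoma line, and sorted from the tumours on day 7 after transfer. Rag1-/- hosts make no T or B cells of their own, but their myeloid and NK cells remain. The labels give the strain of all samples as C57BL/6. They do not say whether the sorted cells were selected for carrying the vector, whether tumours were pooled, or whether each library is from a mouse of its own. The p-values below therefore speak only of the spread among these samples, which may be technical.

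NFAT proteins bind DNA through a Rel-type domain that recognises a GGAAA core. NFAT1, encoded by Nfatc2, is held in the cytoplasm of resting T cells until calcium activates calcineurin, and it then commonly binds composite sites together with AP-1, the Fos and Jun family, to switch on cytokine genes. CA-RIT is a form of NFAT1 that is constitutively active and cannot pair with AP-1, a form known for driving genes of anergy and exhaustion. NFAT5 lacks the calcineurin and AP-1 contacts of the other family members and is best known as the factor that answers osmotic stress. The study's title concerns NFAT5 in CD8 T cell exhaustion, the state in which T cells in tumours hold high levels of inhibitory receptors. Setting the 2 factors directly against each other asks which transcripts differ with the NFAT protein the cell was given.

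Depth was 18.8 to 24.9 M estimated reads with NFAT5 and 28.3 to 29.8 M with CA-RIT NFAT1, so the CA-RIT NFAT1 libraries were the deeper ones without overlap. Levels are given as CPM, the usual depth-scaled read count, with all reads on matched genes as the total. CD8 T cell markers, 9 genes, summed to 28378 to 30622 CPM with NFAT5 and to 30088 to 36803 CPM with CA-RIT NFAT1, against 1095 CPM in the library left out. Cd8a lay at 582 to 665 CPM in the 6 libraries and at 0.0308 CPM in the library left out, where the mast cell gene Cpa3 reached 1859 CPM. Across genes whose mean reached 5 CPM, the correlation of log2 levels (Pearson's r across genes, which are not independent) was 0.922 to 0.959 between NFAT5 libraries. It was 0.918 to 0.950 between CA-RIT NFAT1 libraries and 0.907 to 0.968 between libraries of different groups. The highest r of any pair joined NFAT5 1 with CA-RIT NFAT1 2.

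Nfat5 itself had the smallest p of all genes tested (ENSMUSG00000003847, GRCm38 chromosome 8, 107293470 to 107379517, plus strand). It stood at 87.0, 81.6 and 48.0 CPM in NFAT5 1, 5 and 8 and at 10.7, 4.69 and 3.01 CPM in CA-RIT NFAT1 2, 4 and 9. The lowest NFAT5 library was thus above the highest CA-RIT NFAT1 library. The log2 fold change (CA-RIT NFAT1 minus NFAT5 here and below) was -3.58 ± 0.49 (SE), with an edgeR unadjusted p of 6.66e-05 and an adjusted p of 0.880. An exact two-sided permutation test of its level gave p = 0.1, the smallest that the 20 splits of 3 against 3 allow. Reads on the transcript Nfat5-211 numbered 1878, 1286 and 788 with NFAT5, 33 in CA-RIT NFAT1 2 and 0 in CA-RIT NFAT1 4 and 9. With 0 of 136 and 0 of 85 Nfat5 reads there, the 95% Wilson intervals reach up to 2.75% and 4.32%, and such intervals cover counting error only.

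Nfatc2, the gene of NFAT1 (ENSMUSG00000027544, GRCm38 chromosome 2, 168476410 to 168601657, minus strand), had overlapping groups. It lay at 70.0, 42.3 and 36.6 CPM with NFAT5 and at 88.8, 63.5 and 30.0 CPM with CA-RIT NFAT1. The lowest value of all was in CA-RIT NFAT1 9. The log2 fold change was 0.27 ± 0.40 (SE), it was -0.06 without CA-RIT NFAT1 2, and the exact two-sided permutation p was 0.8. The label of the CA-RIT NFAT1 libraries was therefore not checked by the level of this gene, and directions below rest on the labels.

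No single gene, Nfat5 included, passed the adjusted threshold in the main edgeR fit. Of 13215 genes tested with edgeR's quasi-likelihood test, 0 were higher (0%) and 0 were lower (0%) with CA-RIT NFAT1 at a Benjamini-Hochberg adjusted p of 0.05. At an unadjusted p under 0.05, 158 were higher (1.2%) and 75 lower (0.568%). With DESeq2, 8 genes passed on the higher side (0.0605%) and 4 on the lower (0.0303%). Nfat5 was 1 of those lower genes (DESeq2 adjusted p = 8.37e-12). With limma voom, 0 passed on either side. Without NFAT5 1 the edgeR calls were again 0 and 0, but 687 genes were higher and 202 lower at an unadjusted p under 0.05. Differences were small where levels were high. Of 3946 genes whose mean reached 50 CPM, 99.9% had a log2 fold change between -1 and 1. The median 95% interval of these genes reached 0.50 to either side on the log2 scale.

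**Figure D1:**
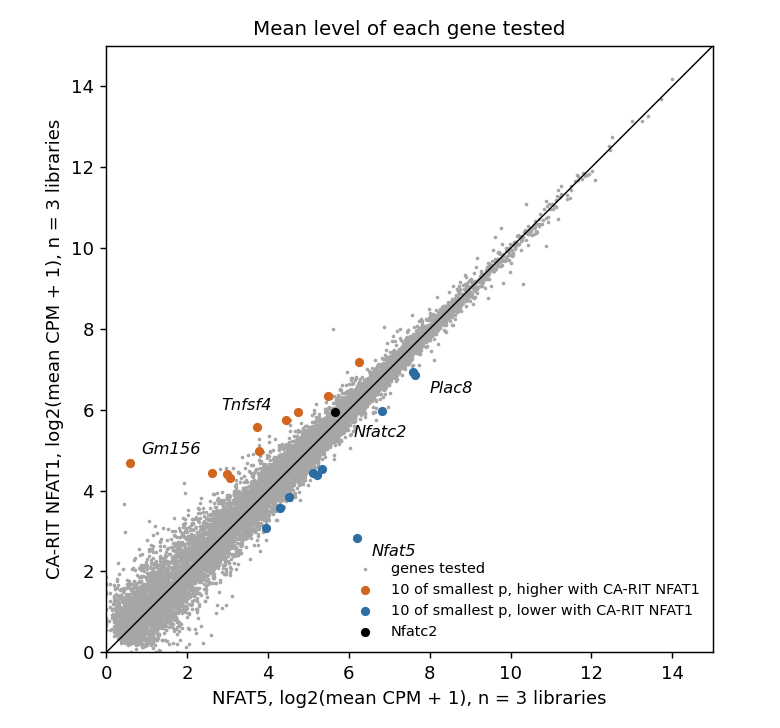
Each point is 1 of the 13215 genes tested, at its mean level in 3 NFAT5 libraries (x axis) and 3 CA-RIT NFAT1 libraries (y axis), both as log2(mean CPM + 1), with the line of equal levels. Nfat5 lies far below the line (72.2 against 6.15 CPM), Nfatc2 lies on it within its error, and the 19 other coloured genes are the remaining leading genes of each direction.

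The values of genes that led each direction are given next, although no gene but Nfat5 passed the adjusted threshold under any edgeR setting tried. They are the 10 genes of smallest p in each direction among those whose mean reached 5 CPM, and in all 20 the groups did not overlap. Over the 9286 genes of that level, the groups did not overlap in 328 that were higher (3.53%) and 192 that were lower (2.07%). Tnfsf4, which encodes OX40 ligand (chromosome 1, 161395409 to 161418410), lay at 21.3, 17.6 and 23.3 CPM with NFAT5 and at 39.0, 46.0 and 71.5 CPM with CA-RIT NFAT1. Its log2 fold change was 1.31 ± 0.28 (edgeR unadjusted p = 0.00151). DESeq2 called it (adjusted p = 0.0378), and it was 1.02 to 1.51 with any 1 library left out.

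Cd80, which encodes a ligand of CD28 and CTLA-4 (chromosome 16, 38455561 to 38496335), lay at 11.9, 14.2 and 11.6 CPM with NFAT5. With CA-RIT NFAT1 it lay at 26.6, 25.2 and 40.0 CPM, every value above the NFAT5 range (log2 fold change 1.26 ± 0.28). Il2ra, the high-affinity chain of the interleukin-2 receptor (chromosome 2, 11642807 to 11693193), had 29.9, 20.8 and 25.8 CPM with NFAT5. It had 49.0, 47.4 and 86.3 CPM with CA-RIT NFAT1 (1.24 ± 0.29). Tnfsf4, Cd80 and Il2ra were all highest in CA-RIT NFAT1 9, and leaving that library out gave 1.02, 1.02 and 0.90. All 3 are also expressed by cells other than CD8 T cells. Penk, the gene of the opioid peptide precursor proenkephalin (chromosome 4, 4133531 to 4138819), had 15.9, 8.58 and 12.3 CPM with NFAT5 and 44.9, 25.2 and 68.6 CPM with CA-RIT NFAT1. Its log2 fold change was 1.89 ± 0.40, and DESeq2 called it (adjusted p = 0.00840).

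Arhgap21, a GTPase-activating protein (chromosome 2, 20847919 to 20968881), had 7.22, 2.98 and 5.25 CPM with NFAT5 and 21.5, 23.01 and 17.6 CPM with CA-RIT NFAT1. Its log2 fold change of 1.99 ± 0.37 had the smallest edgeR p on the higher side among genes of 5 CPM or more (0.000615, adjusted p = 1.00), and DESeq2 called it (adjusted p = 0.00378). Serpinb9b, of the serpin family that inhibits granzymes, had 103, 56.7 and 65.8 CPM with NFAT5 against 151, 128 and 151 CPM (0.92 ± 0.23). It belongs to a family of close copies, between which reads can be split. Gm156 was nearly confined to one side, with 1.49, 0 and 0 CPM with NFAT5 and 38.8, 11.02 and 24.3 CPM with CA-RIT NFAT1. It reached a mean of 5 CPM only through the CA-RIT NFAT1 libraries. The remaining genes of the higher side were Bspry at 0.86 ± 0.20, Engase, an enzyme that cuts N-glycans, at 1.36 ± 0.33 and the endosomal protein gene Wdr91 at 1.53 ± 0.39.

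On the lower side, all leading genes but Nfat5 had log2 fold changes between -1 and 0. Plac8, which encodes a small cysteine-rich protein (chromosome 5, 100553725 to 100572245), lay at 191, 174 and 225 CPM with NFAT5 and at 133, 115 and 96.3 CPM with CA-RIT NFAT1 (-0.80 ± 0.19). Socs1, an inhibitor of cytokine signalling through JAK and STAT proteins (chromosome 16, 10782240 to 10785536), had 29.2, 39.2 and 32.9 CPM against 22.6, 20.9 and 18.3 CPM (-0.74 ± 0.24). Ets2, a transcription factor, had 38.2, 50 and 28.8 CPM against 19.3, 26.7 and 19.9 CPM (-0.84 ± 0.28). The fatty acid desaturase gene Fads1 had 36.3, 34.4 and 36.5 CPM with NFAT5 and 22.1, 16.0 and 21.2 CPM with CA-RIT NFAT1 (-0.88 ± 0.23), with a narrow spread in the NFAT5 group. Coil, the gene of coilin in Cajal bodies, had -0.78 ± 0.25. The co-chaperone gene Dnajb12 had -0.74 ± 0.25, and Nkapd1 had -0.97 ± 0.29. Rn7s1 (-0.67 ± 0.18), a 7SL RNA gene, and Hist1h2ao (-0.89 ± 0.26), a histone H2A gene, have near-identical copies in the genome, so their counts are uncertain.

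**Figure D2:**
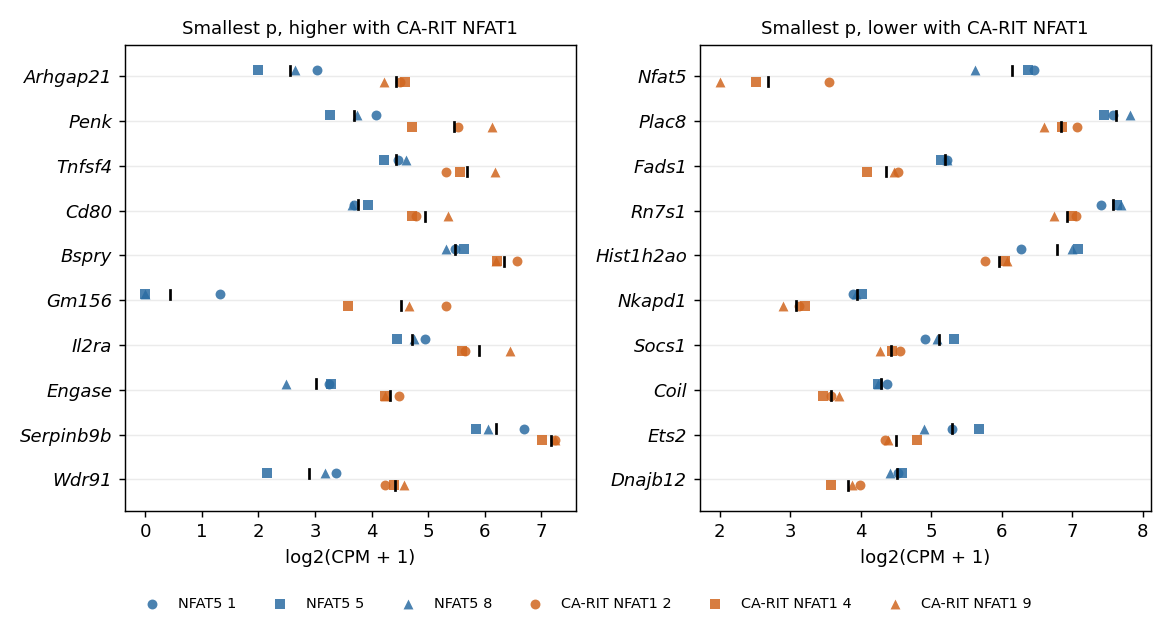
Levels of the 10 genes of smallest p in each direction, as log2(CPM + 1) on the x axis, for each of the 6 libraries (blue NFAT5, orange CA-RIT NFAT1, shapes mark the library) with black bars at the group means of these log2 values. In each gene the 3 libraries of one group lie on one side of the 3 of the other, and Nfat5 and Gm156 show the widest gaps.

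Promoters of 3 leading genes are shown because each holds the GGAAA core that NFAT proteins recognise, in capitals (as GGAAA, or as TTTCC where it lies on the other strand). They are 250 bases before the RefSeq start in GRCm38.p6, 5′ to 3′ on the strand of the gene, for the interleukin-2 receptor chain Il2ra (chr2:11642542-11642791, plus strand), the granzyme inhibitor Serpinb9b (chr13:33027164-33027413, plus strand) and the cytokine signalling inhibitor Socs1 (chr16:10785537-10785786, minus strand).
Il2ra: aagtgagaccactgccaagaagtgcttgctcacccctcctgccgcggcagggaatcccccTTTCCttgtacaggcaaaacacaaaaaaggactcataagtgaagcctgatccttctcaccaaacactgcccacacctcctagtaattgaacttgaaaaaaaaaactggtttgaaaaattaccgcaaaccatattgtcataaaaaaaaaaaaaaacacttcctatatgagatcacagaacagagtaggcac
Serpinb9b: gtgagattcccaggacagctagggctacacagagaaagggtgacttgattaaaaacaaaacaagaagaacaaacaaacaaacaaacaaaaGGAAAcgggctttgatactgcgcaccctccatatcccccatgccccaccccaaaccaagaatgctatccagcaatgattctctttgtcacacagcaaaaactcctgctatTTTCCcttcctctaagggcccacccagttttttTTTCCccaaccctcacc
Socs1: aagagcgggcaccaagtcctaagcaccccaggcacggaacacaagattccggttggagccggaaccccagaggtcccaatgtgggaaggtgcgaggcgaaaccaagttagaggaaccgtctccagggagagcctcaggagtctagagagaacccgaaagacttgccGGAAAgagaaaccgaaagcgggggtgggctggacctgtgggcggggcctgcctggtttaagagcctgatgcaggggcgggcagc
The core was found 1, 3 and 1 times in them, on either strand. It was common everywhere, in 54.4% of the 9311 tested genes with such a promoter, and in 4 of 7 and 3 of 6 of the leading higher and lower genes that had one. The AP-1 motif TGANTCA was in 3.97% of all, 1 of the 7 (Cd80, with 1 match, the motif being its own reverse complement) and 0 of the 6. The RefSeq start used for Cd80 lies 3372 bases from the GENCODE start of the gene. For Arhgap21 and Coil the distances are 1160 and 3683 bases. The tonicity element bound by NFAT5, every match of which holds a GGAAA core, was in 3.29% of all and in 0 of either set. A match is only a description of the letters in this window.

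The lists of genes below were read member by member, and 0 of their members passed the adjusted threshold in the main edgeR fit. For scale, over all 13215 genes the log2 fold change had a median of -0.00151, with 6576 above and 6639 below 0. In the calcineurin and NFAT pathway, 16 of 23 genes tested were on the higher side with CA-RIT NFAT1 and 7 on the lower, with a median of 0.11. With 1 library left out the median ran from -0.09 to 0.30. Besides Nfat5, the 3 members of smallest p were the inositol trisphosphate kinase gene Itpkb at 0.62 ± 0.29, the calcium channel gene Itpr1 at 0.73 ± 0.40 and Nfatc1, the gene of NFAT2. Nfatc1 lay at 394, 184 and 192 CPM with NFAT5 and at 472, 273 and 215 CPM with CA-RIT NFAT1, overlapping groups with a log2 fold change of 0.30 ± 0.36. It was -0.04 without CA-RIT NFAT1 2.

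Osmotic stress targets of NFAT5, the genes that NFAT5 is known to raise in salt-stressed cells, had no common direction. Of 18 tested (Nfat5 itself among them), 9 were on the higher and 9 on the lower side with CA-RIT NFAT1, and the median was 0.00, running from -0.08 to 0.23 with 1 library left out. Akr1b3, the aldose reductase gene, lay at 353, 449 and 493 CPM with NFAT5 and at 351, 393 and 434 CPM with CA-RIT NFAT1 (-0.16 ± 0.19). Slc6a6, the taurine transporter gene, had 61.7, 31.2 and 43.6 CPM against 66.0, 53.9 and 51.2 CPM (0.31 ± 0.26). Hspa4l, an osmotic heat shock gene, had 36.2, 29.0 and 30.8 CPM against 47.6, 20.8 and 19.4 CPM (-0.16 ± 0.36, and 0.07 without CA-RIT NFAT1 9). The myo-inositol transporter gene Slc5a3 was at or under 2.85 CPM in all 6 libraries. The groups overlapped in each of the 4 genes, and the 95% interval for Akr1b3 ran from -0.60 to 0.28.

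Inhibitory receptors, the cell surface brakes that define exhausted cells, were on the higher side with CA-RIT NFAT1 in 16 of the 18 tested, with a median of 0.44. The median moved from 0.80 without NFAT5 1 to 0.02 without CA-RIT NFAT1 2, so it rested on which of these libraries was present. With both left out it was 0.50, and 15 of 18 members were higher. At an unadjusted p under 0.05 in edgeR, 3 members were higher (1.2% of all genes were) and 1 lower (0.568% of all genes). Cd160 was the 1 member of 18 whose groups did not overlap, as in 3.99% of all genes on the higher side and 2.75% on the lower. It lay at 68.1, 53.9 and 38.4 CPM with NFAT5 and 81.4, 96.4 and 94.5 CPM with CA-RIT NFAT1 (0.75 ± 0.24). Havcr2, which encodes TIM-3, had 201, 108 and 94.4 CPM against 292, 169 and 215 CPM (0.73 ± 0.31). Tigit had 73.4, 46.1 and 44.1 CPM against 120, 64.4 and 82.3 CPM (0.68 ± 0.28). For both, NFAT5 1 lay above CA-RIT NFAT1 4. Klrg1, a lectin receptor of short-lived effector cells, went the other way with 165, 346 and 311 CPM against 143, 219 and 87.0 CPM (-0.89 ± 0.39).

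The best known receptors varied more within the groups than between them. Pdcd1, which encodes PD-1 (chromosome 1, 94038305 to 94052553), lay at 932 CPM in NFAT5 1 but at 204 and 266 CPM in NFAT5 5 and 8. In CA-RIT NFAT1 2, 4 and 9 it lay at 886, 318 and 730 CPM, and the log2 fold change was 0.45 ± 0.57, or 1.402 without NFAT5 1. Lag3 had 88.5 CPM in NFAT5 1 and 155 CPM in CA-RIT NFAT1 2 and between 24.0 and 47.4 CPM in the other 4 (0.82 ± 0.63, and 0.00 without CA-RIT NFAT1 2). Ctla4 ran from 61.9 to 209 CPM with NFAT5 and from 102 to 151 CPM with CA-RIT NFAT1 (0.06 ± 0.39), and Entpd1, the gene of CD39, had 0.27 ± 0.33. With 1 library left out these ran from -0.27 (without NFAT5 5) to 0.59 (without NFAT5 1) for Ctla4 and from -0.04 (without CA-RIT NFAT1 2) to 0.51 for Entpd1. Tox, the transcription factor that sustains exhaustion, was again highest in NFAT5 1 (229 CPM) and CA-RIT NFAT1 2 (329 CPM) and lay between 89.5 and 144 CPM elsewhere. Its log2 fold change of 0.43 ± 0.46 was -0.15 without CA-RIT NFAT1 2.

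**Figure D3:**
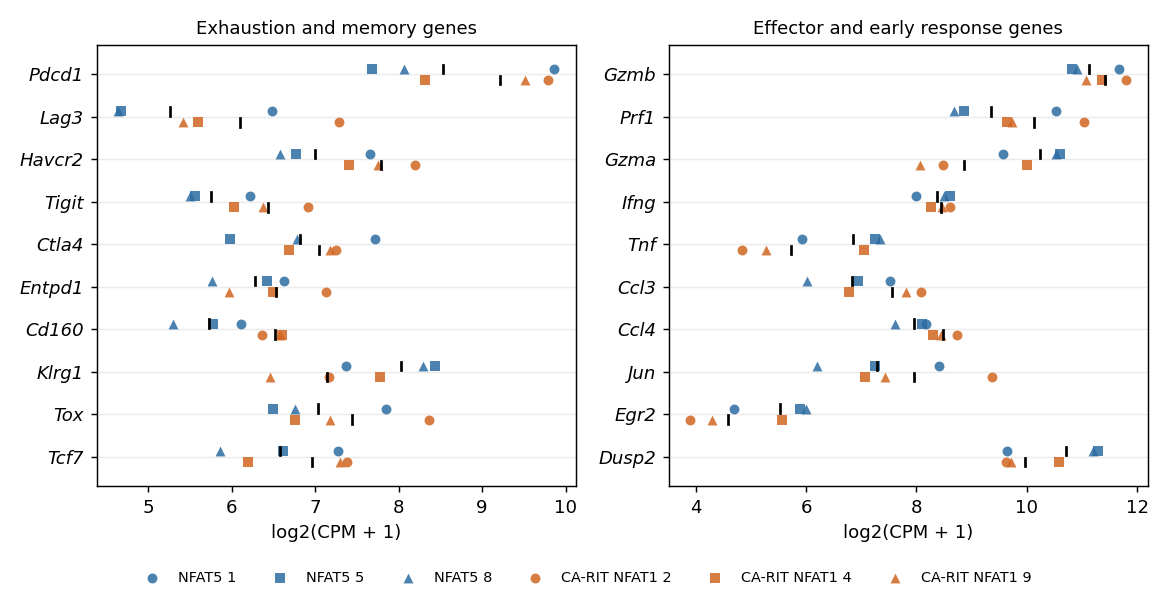
Levels of exhaustion, memory, effector and early response genes in the 6 libraries, as log2(CPM + 1), drawn as in the plot of leading genes. NFAT5 1 and CA-RIT NFAT1 2 (circles) are the highest of their groups for Pdcd1, Lag3, Havcr2, Tox, Prf1 and Jun, and the groups overlap in all 20 genes except Cd160 and Ccl4.

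NFAT5 1 and CA-RIT NFAT1 2 stood together in the genes at large as well. In a principal component analysis of the same well-measured genes (mean of 5 CPM or more), the first component held 47.3% of the variance. It placed CA-RIT NFAT1 2 at -37.2, NFAT5 1 at -30.0 and CA-RIT NFAT1 4 at -4.77, with NFAT5 5 at 17.0, CA-RIT NFAT1 9 at 19.8 and NFAT5 8 at 35.1. This main axis of difference did not separate the factors. The sum of 27 macrophage and monocyte markers moved along with it, at 2101 CPM in NFAT5 1 and 3420 CPM in CA-RIT NFAT1 2 against 1200 to 1530 CPM in the other 4. Ly6c2, which activated CD8 T cells also express, gave 355 to 1334 CPM of it. In 19 of the 26 markers tested the value was higher with CA-RIT NFAT1, with a median of 0.81, or 0.04 without CA-RIT NFAT1 2. Some other members moved with these 2 libraries too, and some did not. Spp1, the gene of osteopontin, had 113 CPM in NFAT5 1 and 663 CPM in CA-RIT NFAT1 2 against 13.8 to 75.2 CPM elsewhere. Itgam had 110 and 230 CPM in them, with 109 CPM in CA-RIT NFAT1 4 and 25.9 to 37.8 CPM in the other 3. The cathepsin gene Ctsb had 563 and 665 CPM against 354 to 454 CPM, and Cd68 had 78.9 and 137 CPM against 44.5 to 71.4 CPM. Lyz2 did not move with them, at 12.6 CPM in NFAT5 1 and 12.4 CPM in CA-RIT NFAT1 2. It had 15.9 and 67.4 CPM in NFAT5 5 and 8, and 12.2 and 53.7 CPM in CA-RIT NFAT1 4 and 9. Ccr2 had 152, 149 and 80.8 CPM with NFAT5 and 149, 88.1 and 16.1 CPM with CA-RIT NFAT1. Chil3 was highest in CA-RIT NFAT1 9, at 67.1 CPM. The receptor gene Csf1r, Adgre1 and C1qa were scarcer, at or under 8.58, 5.29 and 4.28 CPM in the 6 libraries. Of the 27 markers 1 was under 1 CPM in all 6, and 0 were at 0 reads in all 6. The part of such cells in the differences among libraries was not tested. In bulk samples, fewer cells of a type and less RNA per cell cannot be told apart.

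Exhaustion transcription factors had 12 of 19 on the higher side and a median of 0.10, which ran from -0.02 without CA-RIT NFAT1 2 to 0.39 without NFAT5 1. The T-box factor gene Tbx21 (T-bet) had 220, 199 and 220 CPM with NFAT5 and 276, 235 and 271 CPM with CA-RIT NFAT1, without overlap (0.27 ± 0.15). Runx2 had 0.55 ± 0.28, Ikzf2, which encodes Helios, 1.22 ± 0.63, and the orphan nuclear receptor gene Nr4a3 0.44 ± 0.29. Its relatives Nr4a1 and Nr4a2 had -0.40 ± 0.34 and -0.08 ± 0.25, the second turning to 0.14 without CA-RIT NFAT1 9. Stem-like and memory genes lay higher in 20 of 22 (median 0.24, and 0.01 to 0.65 with 1 library left out). Tcf7, the gene of TCF-1, had 154, 96.7 and 57.3 CPM against 165, 72.2 and 157 CPM (0.34 ± 0.40). Slamf6 had 213, 160 and 157 CPM against 301, 182 and 266 CPM (0.48 ± 0.22), Il7r 0.86 ± 0.60 and Id3 0.99 ± 0.62. Klf3, on the lower side, had -0.69 ± 0.33.

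Costimulatory receptors and ligands had 14 of 23 on the higher side (median 0.24), with Tnfsf4 and Cd80 the only 2 at an unadjusted p under 0.05. In 3 members the CA-RIT NFAT1 libraries all lay above the NFAT5 libraries (those 2 and Cd2), and over all 13215 genes this was so for 527 (3.99%) and the reverse for 364 (2.75%). Cytokine receptors and their SOCS inhibitors had 14 of 25 on the higher side (median 0.09), and held Il2ra and Socs1, described above. Il18r1, a chain of the interleukin-18 receptor (chromosome 1, 40465552 to 40500854), had 26.1, 27.8 and 13.4 CPM with NFAT5 and 57.0, 38.9 and 63.0 CPM with CA-RIT NFAT1 (1.22 ± 0.32), without overlap. Cish, another inhibitor of cytokine signalling, had 45.6, 97.9 and 48.3 CPM against 24.95, 48.6 and 22.6 CPM (-1.01 ± 0.41), and there CA-RIT NFAT1 4 overlapped the NFAT5 group.

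Among chemokine ligands 8 of 9 were on the higher side, with a median of 0.51 (0.35 to 0.84 with 1 library left out). With both NFAT5 1 and CA-RIT NFAT1 2 left out the median was 0.29, and 6 members were higher. Ccl4, a chemokine that draws immune cells, had 288, 275 and 193 CPM with NFAT5 and 423, 312 and 348 CPM with CA-RIT NFAT1 (0.50 ± 0.20), without overlap. Xcl1, which draws cross-presenting dendritic cells, had 14.2, 10.3 and 12.6 CPM against 56.4, 8.74 and 74.2 CPM (1.88 ± 0.64), so that CA-RIT NFAT1 4 lay below all NFAT5 libraries. Ccl3 had 0.69 ± 0.41, and Ccl5 had 0.08 ± 0.46, running from -0.54 without CA-RIT NFAT1 2 to 0.46. Of 15 cytokines 12 were on the higher side (median 0.20, from 0.06 without CA-RIT NFAT1 2 to 0.53 without NFAT5 1). Areg, an EGF receptor ligand, had 5.65, 0.959 and 1.79 CPM against 38.5, 6.74 and 6.38 CPM (2.59 ± 0.88, and 1.26 without CA-RIT NFAT1 2). Csf2, the gene of GM-CSF, stayed between 0.403 and 2.80 CPM (1.33 ± 0.76), with groups that did not overlap. Ifng, the main inflammatory cytokine of CD8 T cells, had 254, 387 and 362 CPM against 388, 306 and 349 CPM (0.03 ± 0.21, 95% interval -0.44 to 0.51). Tnf had 60.2, 151 and 162 CPM against 27.5, 132 and 37.7 CPM (-0.93 ± 0.62), and its log2 fold change was -1.98 without CA-RIT NFAT1 4 and -0.54 without CA-RIT NFAT1 2. Il2 was under 0.7 CPM in all 6 libraries and was not tested.

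In the killing machinery, 12 of 19 cytotoxic effector genes had higher values with CA-RIT NFAT1 (median 0.03). Gzmb, the gene of granzyme B, had 3238, 1800 and 1927 CPM with NFAT5 and 3558, 2619 and 2144 CPM with CA-RIT NFAT1 (0.24 ± 0.26). Prf1, the gene of perforin, had 1470, 465 and 408 CPM against 2099, 792 and 846 CPM (0.66 ± 0.54, and 1.45 without NFAT5 1). Gzma, the gene of granzyme A, had 755, 1553 and 1474 CPM against 357, 1029 and 267 CPM (-1.21 ± 0.52), with CA-RIT NFAT1 4 above NFAT5 1. It was -2.07 without CA-RIT NFAT1 4 and -0.87 without CA-RIT NFAT1 9. The anergy list, genes of unresponsive T cells, had 14 of 24 on the higher side (median 0.05, from -0.09 without CA-RIT NFAT1 2 to 0.26 without NFAT5 1). Its member of smallest p was Ptpn6, which encodes the phosphatase SHP-1, at 144, 174 and 137 CPM with NFAT5 and 219, 284 and 257 CPM with CA-RIT NFAT1 (0.72 ± 0.19, without overlap). Egr2 had 24.9, 58.6 and 63.2 CPM against 14.0, 46.6 and 18.7 CPM (-0.90 ± 0.52, from -1.62 without CA-RIT NFAT1 4 to -0.57 without CA-RIT NFAT1 2). Egr3, at or under 6.05 CPM, had -0.20 ± 1.17, turning to 0.39 without NFAT5 5 or CA-RIT NFAT1 2.

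AP-1 genes, whose products CA-RIT cannot pair with, stood with 8 of 17 on the higher and 9 on the lower side (median -0.05). In 3 of the 17, Mafg among them, all CA-RIT NFAT1 libraries lay below the NFAT5 libraries, against 2.75% of all genes. In 1 (Batf3) all lay above, against 3.99%. Jun had 338, 152 and 72.8 CPM with NFAT5 and 663, 133 and 170 CPM with CA-RIT NFAT1 (0.76 ± 0.68, and -0.28 without CA-RIT NFAT1 2). Junb had 803, 1120 and 1099 CPM against 630, 945 and 444 CPM (-0.60 ± 0.29). Fos had 369, 419 and 331 CPM against 486, 431 and 176 CPM (-0.05 ± 0.34, and 0.28 without CA-RIT NFAT1 9), and Batf had 0.30 ± 0.26. Batf3, scarce at 0.306 to 5.00 CPM, had 2.25 ± 0.88. NF-kB genes lay higher in 8 of 20 (median -0.05) and DUSP and Sprouty genes, the brakes of MAP kinases, 6 of 14 (-0.05). Dusp2 had 797, 2509 and 2338 CPM against 787, 1523 and 841 CPM (-0.86 ± 0.45). T cell receptor and proximal signalling genes had 16 of 30 on the higher side (0.04).

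**Figure D4:**
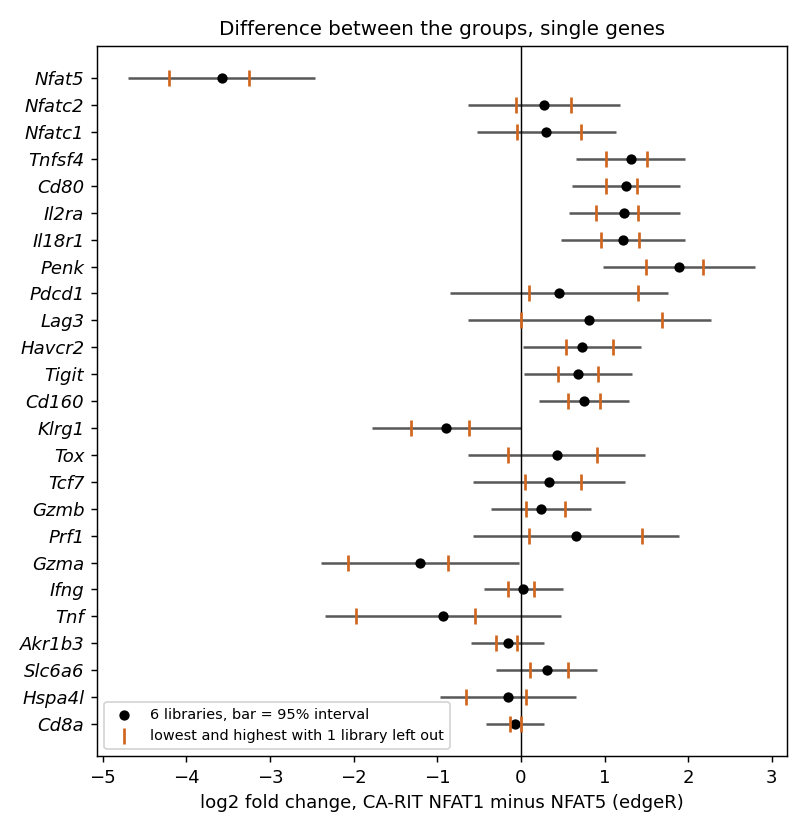
Log2 fold changes (CA-RIT NFAT1 minus NFAT5, edgeR) of 25 genes described in the text, with 95% intervals as grey bars and the lowest and highest value with 1 library left out as orange ticks. The interval of Nfat5 (-4.69 to -2.46) stands apart from 0. Before adjustment for 13215 tests, those of Tnfsf4, Cd80, Il2ra, Il18r1, Penk, Cd160, Havcr2 and Tigit lie above 0. Before adjustment those of Klrg1 and Gzma lie below 0, with upper ends of -0.003 and -0.02. The intervals of Pdcd1, Lag3, Tox, Prf1 and Ifng cross 0.

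Lists of general cell function stayed close to 0, several of them with most members on the same side. Nuclear genes of the respiratory chain were on the lower side with CA-RIT NFAT1 in 51 of 54, with a median of -0.15, and the median was -0.32 without NFAT5 1 and -0.02 without NFAT5 8. Ndufa6, of complex I, had 64.3, 73.8 and 82.8 CPM with NFAT5 and 57.9, 54.9 and 64.9 CPM with CA-RIT NFAT1 (-0.34 ± 0.19). Genes of the G1/S transition and DNA replication were lower in 28 of 32 (median -0.16), with a median of 0.05 without CA-RIT NFAT1 2. With NFAT5 1 left out as well, the median was -0.08 and 13 members were higher. Mcm4, of the replicative helicase, had -0.26 ± 0.21. Mitotic genes had 16 of 30 on the higher side (0.02), and Mki67, the proliferation marker Ki-67, had 0.18 ± 0.21 (-0.04 without CA-RIT NFAT1 4). Proteasome subunits were lower in 28 of 32 (-0.10, turning to 0.05 without NFAT5 8 and to 0.05 without CA-RIT NFAT1 2). Interferon response genes were lower in 26 of 37 (-0.16, and 0.11 without NFAT5 1). Of all 32 lists, 8 had a median that kept its sign with each library left out in turn.

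**Figure D5:**
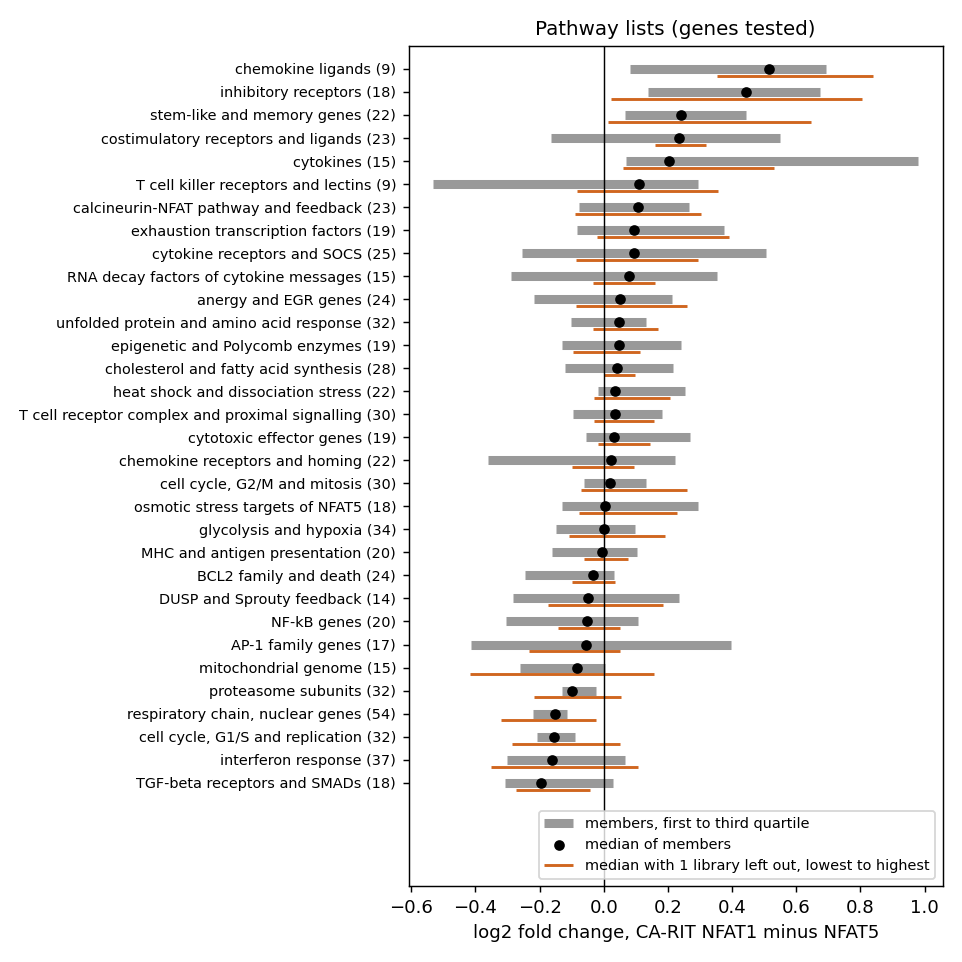
Median log2 fold change (CA-RIT NFAT1 minus NFAT5) of each of the 32 pathway lists as a black point, with the middle 50% of its members as a grey bar and the range of the median with 1 library left out as an orange line. The number of genes tested is in brackets. Chemokine ligands (0.51) and inhibitory receptors (0.44) lie highest, TGF-beta receptors and SMADs (-0.19) lowest, and 30 lists lie between -0.20 and 0.25.

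Some scarce genes were read in one group alone. Of 54337 genes, 14 had 0 reads in all 3 NFAT5 libraries and at least 10 reads in each CA-RIT NFAT1 library, and 2 had the reverse. Folds for them are lower bounds against 3 reads over the group at 0. Il31ra, a receptor chain for interleukin-31, had 48, 118 and 63 reads with CA-RIT NFAT1 and was at least 58.5-fold higher. Frzb, a secreted antagonist of Wnt proteins, had 19, 44 and 131 reads (at least 50.2-fold), and Scn4b, a sodium channel subunit gene, had 68, 37 and 84 reads (at least 48.3-fold). Wdfy4, known in dendritic cells for cross-presentation, had 44, 68 and 44 reads (at least 39.8-fold), and Fam171a1 had 55, 38 and 57 reads (at least 38.3-fold). In the other direction the non-coding RNA Gm807 had 37, 15 and 110 reads with NFAT5 (at least 68.5-fold lower with CA-RIT NFAT1), and the neutrophil collagenase gene Mmp8 had 11, 40 and 34 reads (at least 39.2-fold lower). In CA-RIT NFAT1 10, the library left out for its lack of T cell transcripts, Gm807 had 1111 reads (34.2 CPM) and Wdfy4 had 322 reads (9.91 CPM), and the other 5 of these 7 had 0. The part of other cells in these zeros was not tested. All but Mmp8 of these 7 were among the 12 genes DESeq2 called. The genes were picked for zeros in the same counts, so these calls are not separate support for them. The CA-RIT NFAT1 libraries were also the deeper ones, and the part of depth in these zeros was not tested. None reached 5 CPM in any of the 6 libraries.

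Among the marker lists of other cells, macrophage and monocyte markers had the highest sum, except in NFAT5 5 and 8. There the NK cell list summed to 1719 and 1647 CPM, against 1435 and 1530 CPM for the macrophage list. Gzma, also in the cytotoxic effector list, gave 1553 and 1474 CPM of these NK sums. The NK receptor gene Ncr1 was at or under 3.87 CPM in all 6 libraries. Mast cell and P511 tumour markers, 17 genes, summed to 610 to 645 CPM with NFAT5 and 453 to 746 CPM with CA-RIT NFAT1, and Trap1a, the gene of the P1A antigen, lay at 5.28 to 13.8 CPM. Pax5 and Col1a1, defining genes of B cells and fibroblasts, had 0 reads in all 6. Of the 8 B cell markers 5 were under 1 CPM in all 6, and of the 13 fibroblast and endothelium markers 9 were. Others in these lists were present. Ighm lay at 48.9 to 271 CPM, Igkc at 48.3 to 87.1 CPM and Cd79b at 2.34 to 6.72 CPM. Pecam1, of the fibroblast and endothelium list, lay at 10.8 to 41.8 CPM. The source of these reads was not tested. Cd4 had 0 CPM in 5 libraries and 3.76 CPM in NFAT5 8, and Foxp3, of regulatory T cells, was at or under 0.4 CPM except in CA-RIT NFAT1 9, at 2.66 CPM, the library with the highest Il2ra and Tnfsf4. The CD4 and regulatory T cell list had 4 of 5 tested members on the higher side with CA-RIT NFAT1, with a median of 1.22 (0.77 to 1.38 with 1 library left out), and Il2ra, Ikzf2 and Ctla4, which CD8 T cells also express, are members of it. Dendritic cell markers had 5 of 10 tested on either side. In 3 of the 10 (Zbtb46, Batf3 and Xcr1) all CA-RIT NFAT1 libraries lay above the NFAT5 libraries, against 3.99% of all genes, and in 1 (H2-Eb1) all lay below, against 2.75%. Zbtb46 had 0.161, 0.426 and 1.05 CPM with NFAT5 and 2.19, 3.25 and 4.11 CPM with CA-RIT NFAT1 (2.51 ± 0.86). Xcr1, the receptor of the chemokine Xcl1, had 0.887, 1.12 and 1.09 CPM against 1.75, 2.07 and 2.70 CPM (1.05 ± 0.66). H2-Eb1, a class II histocompatibility gene, had 15.5, 10.3 and 11.3 CPM against 8.85, 6.22 and 4.65 CPM (-0.93). The part of these cells in the values of Cd80, Il2ra and Tnfsf4 was not tested. In CA-RIT NFAT1 10, the library left out, Tnfsf4 and Il2ra lay at 0 CPM and Cd80 at 1.29 CPM. Arhgap21, Wdr91 and Ptpn6 lay at 52.3, 27.1 and 659 CPM there. Of the leading lower genes, Fads1, Ets2, Socs1, Coil and Dnajb12 lay at 156, 70.4, 61.4, 25.1 and 23.4 CPM there, above all 6 libraries. Nfat5, Plac8, Rn7s1, Hist1h2ao and Nkapd1 did not lie above all 6. The part of other cells in the values of these genes was not tested either.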

How the data were processed

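Salmon 0.14.1 made the transcript estimates, and mm10 and GRCm38.p6 are the builds named, per the submitters' processing notes. RNA came from sorted CD8 T cells with a micro column kit and libraries from a Clontech kit, per the labels' protocols. Salmon's options are not stated here. Each deposited table holds, per the file headers, transcript length, effective length, TPM and estimated reads. The deposited estimated counts, not whole numbers, entered all tests. The deposited TPM values and, of other units, the deposited effective lengths served only for the alternative with average transcript length offsets.

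Of 140919 transcripts, 139966 matched GENCODE M21. Estimated counts were added up per gene (54337 genes) and rounded to whole numbers. Of these genes 33213 had 0 reads in the 6 libraries. The test was edgeR 4.0.16 under R 4.3.3 (quasi-likelihood test, TMM scaling, default low-count filter, 8.33 degrees of freedom, Benjamini-Hochberg threshold 0.05). The biological coefficient of variation was 0.485. The 2 single-gene permutation tests used log2(CPM + 1). Promoters come from RefSeq (GRCm38.p6), matched by symbol.

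Named genes were the 10 of smallest p per direction with a mean of at least 5 CPM, up to 4 of smallest p per list, and a fixed set of exhaustion, effector, NFAT and marker genes. The 32 pathway lists and 10 marker lists, written from general knowledge, and the compared libraries were chosen with earlier results of these data known. Alternatives were DESeq2 1.42.0, limma 3.58.1 voom with quality weights, other scalings and filters, length offsets, protein-coding genes only, each library left out, and the inclusion of CA-RIT NFAT1 10. The title number as a covariate, and 4 libraries without NFAT5 1 and CA-RIT NFAT1 2, were added after seeing the data. In simulated data made from these libraries (13215 genes, 200 changed), the same fit recovered 46%, 90%, 100% and 100% at absolute log2 fold changes of 1, 2, 3 and 4, with 12 false calls. The changed genes all had a mean of at least 5 CPM. All simulated libraries shared a common mean profile and followed the dispersion trend, without the axis shared by NFAT5 1 and CA-RIT NFAT1 2. These shares are therefore not the power of the real comparison, where Nfat5 at -3.58 was not called.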

Additional observations from a re-analysis of the deposited data

How the results depend on the processing

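Counts of genes past the adjusted threshold were 0 higher and 0 lower under RLE and upper-quartile scaling, library size alone, the stricter filter, voom, protein-coding genes only, the inclusion of CA-RIT NFAT1 10 and the 4-library fit. With each library left out in turn the counts ranged from 0 to 0 in either direction. DESeq2 gave 8 higher and 4 lower. Without a low-count filter, with length offsets and with the title number as a covariate there was 1 lower, which was Nfat5 (adjusted p 0.0242, 0.0331 and 0.0370 in edgeR). The difference in log2 level (pseudocount 1 CPM) ran from -3.89 to -3.12 for Nfat5 and from -0.12 to 0.64 for Nfatc2 with 1 library left out.

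Of 163 named genes, 86 moved by less than the spread between libraries under all the settings in which they were tested. With CA-RIT NFAT1 10 included, 57 moved by more and 25 took the other direction, and without CA-RIT NFAT1 2, 6 moved and 14 took the other direction. Genes under 1 CPM had a median standard error of 1.24 on the log2 scale, against 0.22 for genes of at least 50 CPM, so their differences are the less precise ones. No paired analysis was possible because the groups share no replicate number in the labels.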

Other observations

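Of the 9286 genes whose mean reached 5 CPM, 119 had a log2 fold change of at least 1 in size. In 54 of those the groups also did not overlap, 43 of them higher with CA-RIT NFAT1 and 11 lower. Over all 9286 genes the groups did not overlap in 328 that were higher (3.53%) and 192 that were lower (2.07%). Choosing genes by a large fold change favours groups that do not overlap, so the 54 are not a result of their own. The genes below were picked from these 54 after their values were seen. Siglecf, a sialic acid binding lectin gene best known in eosinophils and alveolar macrophages, had 1.09, 0 and 0 CPM in NFAT5 1, 5 and 8 and 14.4, 7.46 and 13.3 CPM in CA-RIT NFAT1 2, 4 and 9. It reached a mean of 5 CPM only through the CA-RIT NFAT1 libraries. Inpp4b, a phosphatase of inositol lipids, had 12.8, 10.98 and 3.98 CPM with NFAT5 and 43.8, 22.7 and 16.1 CPM with CA-RIT NFAT1 (1.55 ± 0.51). Trp73, a p53 family gene, had 13.2, 1.28 and 3.41 CPM against 18.2, 15.5 and 33.1 CPM (1.89 ± 0.74). Napsa, which encodes an aspartic protease, had 22.2, 12.5 and 10.9 CPM against 39.7, 24.7 and 42.9 CPM (1.22 ± 0.34). On the lower side Tlr6, a Toll-like receptor gene, had 6.55, 7.01 and 7.96 CPM with NFAT5 against 4.66, 3.48 and 2.70 CPM with CA-RIT NFAT1 (-1.01 ± 0.42). None of these genes passed the adjusted threshold in edgeR.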
